A study of Mus musculus with 18 samples.

Results

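The genes described here are 9 genes known as contractile or TGF-beta-induced genes of myofibroblasts: Acta2, Tagln, Cnn1, Myl9, Tpm1, Tpm2, Cald1, Tgfbi and Postn. They were chosen by symbol, with earlier results of these data known. Each symbol matched 1 of the 55401 genes in the mRNA count tables. The cells were NIH/3T3, an established mouse embryonic fibroblast line, either wild type (WT) or with XPO4 knocked out by CRISPR-Cas9 (XPO4 KO). XPO4 is exportin 4, a nuclear export receptor, and in the KO line both copies of the gene carried the same edit, so the line stands for 1 edited genotype. No treatment, time or dose differed between the groups. Per the labels, RNA was sequenced from 3 libraries of each genotype as whole-transcriptome libraries with 150 nt paired-end reads, and circular RNAs (circRNAs) were sequenced separately in 12 libraries after RNase R digestion. Nothing in the sources says that the 3 libraries of a genotype came from separate cultures, so p-values measure the spread between these libraries, which may be technical.

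The genotype of the mRNA libraries rests on their labels. In all 6 count tables the column heading gives the opposite genotype to the sample title, and grouping was by title. Xpo4 itself stood at 3.08, 2.93 and 2.89 FPKM (counts scaled to exon length and to the total of counted reads) in the libraries labelled WT and at 3.72, 2.62 and 3.77 FPKM in those labelled KO. The groups overlapped, and the log2 fold change was 0.18 (SE 0.110, n = 3 a group, edgeR adjusted p = 0.193). Without KO replicate 2 it was 0.34 (edgeR adjusted p = 0.000252), so the level of the targeted gene was not lower in the libraries labelled KO. The counts hold no sequence that would show the edit. Every direction below is therefore that of the libraries labelled KO against those labelled WT.

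The libraries held between 16974062 and 22057323 counted reads. KO replicate 2 stood apart from the other KO libraries in chi-square per gene (10.4 and 12.1, against 3.63 between the other two and 3.06 to 5.03 among the WT libraries). Its short genes lay high and its long genes low (median deviations of 0.0900 log2 units over genes of at most 2276 nt of exon and of -0.0851 over genes of at least 6370 nt). The summed level of 10 fibroblast markers ran from 1832 to 1868 FPKM in the libraries labelled WT and from 1935 to 2078 FPKM in those labelled KO. Of 14688 genes tested, 7151 (48.7%) had an adjusted p under 0.05, and the median log2 fold change over all of them was -0.0029.

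A myofibroblast is a fibroblast that has taken up a contractile apparatus akin to that of smooth muscle. Its stress fibres are bundles of actin filaments and non-muscle myosin, wrapped by tropomyosins and bound by calponins, caldesmon and transgelins, and phosphorylation of the regulatory myosin light chain starts their contraction. Many of these genes carry CArG boxes, the DNA element bound by serum response factor (SRF) with its actin-sensing cofactors of the MRTF family. TGF-beta is the classical inducer of this state, through Smad proteins that bind short CAGAC elements, and the co-activators YAP and TAZ, which act through TEAD factors at CATTCC elements, respond to cell spreading and tension. NIH/3T3 cells are fibroblasts with abundant stress fibres in culture, so these genes are normally active in them to some degree.

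RefSeq promoters (GRCm38.p6, from 250 bases before to 50 bases after a transcript start) were given for 8 of the 9 genes, 10 promoters in all. Tagln was not among them. The promoters of Acta2, Myl9 and Cnn1 are shown because these genes had the largest differences between genotypes, and because they differed in their CArG letters. They were picked with both known, so the contrast between them is no test of the box. The 250 bases before the start lie at chr19:34255374-34255623 on the minus strand for Acta2, at chr2:156775214-156775463 on the plus strand for Myl9 and at chr9:22099003-22099252 on the plus strand for Cnn1. The gene starts in the annotation of the count tables lie within these windows. Capitals mark a CArG box, CC then 6 bases of A or T then GG, in which at most 1 base of the core was allowed to be another letter.
Acta2: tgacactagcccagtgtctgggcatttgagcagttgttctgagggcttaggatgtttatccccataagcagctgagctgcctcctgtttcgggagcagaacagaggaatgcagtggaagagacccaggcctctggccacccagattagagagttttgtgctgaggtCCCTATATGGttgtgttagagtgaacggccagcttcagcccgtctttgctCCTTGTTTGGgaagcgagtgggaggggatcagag
Myl9: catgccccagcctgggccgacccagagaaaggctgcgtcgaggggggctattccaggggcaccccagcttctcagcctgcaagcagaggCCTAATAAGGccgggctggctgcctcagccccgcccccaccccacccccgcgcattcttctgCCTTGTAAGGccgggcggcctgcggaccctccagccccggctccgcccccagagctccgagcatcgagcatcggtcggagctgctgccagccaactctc
Cnn1: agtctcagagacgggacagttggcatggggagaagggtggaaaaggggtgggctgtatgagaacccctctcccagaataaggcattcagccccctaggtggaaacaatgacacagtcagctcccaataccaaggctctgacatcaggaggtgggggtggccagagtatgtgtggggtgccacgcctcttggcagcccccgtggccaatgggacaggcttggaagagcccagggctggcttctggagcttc

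A CArG box with a full A or T core was in 535 of 32851 mouse promoters of this length (1.63%), and one with at most 1 other letter in the core was in 3280 (9.98%). Because the box reads CC to GG on both strands, 1 search covers both. Myl9 held a full box, CCTAATAAGG, 161 bases before the start and a box with 1 substitution, CCTTGTAAGG, 99 bases before it. Acta2 held CCCTATATGG 84 bases and CCTTGTTTGG 34 bases before the start, each with 1 substitution. In the windows of the other 6 genes these letters did not occur. Among them are Cnn1, called lower below, and Tpm1, Tpm2 and Postn, called higher. Sites outside the windows were not searched. The TEAD letters CATTCC, or GGAATG on the other strand, were in promoters of 3 genes (Acta2, Cald1 and Tpm1; 14.7% of all promoters), and the Smad letters CAGAC or GTCTG were in promoters of 5 genes (49.6% of all promoters). These matches are letters in a window and no measurement of binding.

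The 9 genes did not move as 1 set. In the libraries labelled KO, 5 genes were higher (Acta2, Myl9, Tpm1, Tpm2 and Postn), 1 was lower (Cnn1), and Tagln, Cald1 and Tgfbi did not pass the test. These calls are at a p under 0.05 in the quasi-likelihood test of edgeR, adjusted by Benjamini-Hochberg over all 14688 genes. Over all genes tested, 25.1% were called higher and 23.6% lower, so the 6 calls among 9 genes stand beside a background of 48.7%. With a log2 fold change of at least 1 in either direction as well, 3 of the 9 (Acta2, Cnn1 and Myl9) were called, against 9.61% of all genes. All 9 passed the filter on low counts. Their median log2 fold change was 0.24, and that of the 7 contractile genes was 0.72. Because the 9 genes were chosen with earlier results of these data known, setting them beside all genes is no test of the set. In bulk RNA, fewer cells with a transcript and less of it per cell cannot be told apart.

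**Figure D1:**
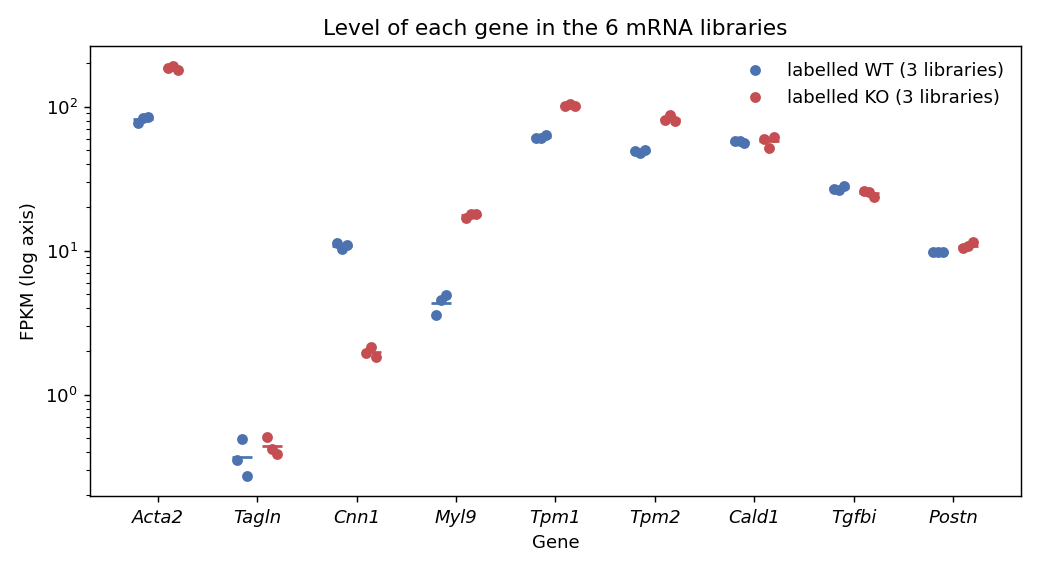
Level of the 9 genes in the 6 mRNA libraries, in FPKM on a log axis. Each point is 1 library, in blue for those labelled WT and in red for those labelled KO, and the short line is the mean of 3 libraries. Myl9 and Cnn1 lie far apart between the groups in opposite directions, and the points of Tagln and Cald1 overlap.

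Acta2 encodes smooth muscle alpha-actin, the actin whose incorporation into stress fibres defines a myofibroblast. The gene (ENSMUSG00000035783.9) lies at chr19:34241090-34255590 on the minus strand, in mm10 coordinates as for every gene below, with 2196 nt of annotated exon. It stood at 77.3, 82.9 and 84.4 FPKM in the libraries labelled WT and at 185, 190.3 and 181 FPKM in those labelled KO. The groups were far apart, and every library labelled KO was higher. The means were 81.5 ± 3.74 and 185 ± 4.88 FPKM (SD, n = 3), a 2.27-fold difference with a log2 fold change of 1.18 (SE 0.0567, edgeR adjusted p = 2.43e-09). Tagln aside, Acta2 was the most abundant of these genes per exon length in both genotypes. Its mRNA is close in sequence to those of the other actins, and reads that aligned to several places were not counted, so its level may be understated in every library.

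Myl9 encodes a regulatory light chain of smooth muscle and non-muscle myosin II, the subunit whose phosphorylation switches contraction on. The gene (ENSMUSG00000067818.6) lies at chr2:156775420-156781658 on the plus strand, with 1162 nt of exon. Its level was 3.55, 4.54 and 4.92 FPKM in the libraries labelled WT and 17.0, 18.0 and 18.0 FPKM in those labelled KO. It had the largest rise of the 9, from 4.33 ± 0.706 to 17.7 ± 0.595 FPKM, 4.06-fold (log2 fold change 2.02, SE 0.124, edgeR adjusted p = 2.49e-08). The promoter of this gene is the one printed above with a full CArG box, and a link between the box and the rise was not tested.

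Cnn1 encodes calponin 1, an actin-binding protein that restrains the myosin ATPase and is used as a marker of differentiated smooth muscle. The gene (ENSMUSG00000001349.5) lies at chr9:22099216-22109630 on the plus strand, with 2736 nt of exon. Its counts were 611, 547 and 656 reads in the libraries labelled WT and 95, 105 and 85 reads in those labelled KO, which gave 11.2, 10.2 and 10.9 FPKM against 1.95, 2.14 and 1.83 FPKM. It was the only 1 of the 9 that was called lower, and it fell in every library. The means were 10.8 ± 0.502 and 1.97 ± 0.157 FPKM, 5.46-fold lower (log2 fold change -2.45, SE 0.101, edgeR adjusted p = 5.13e-10). Acta2 and Cnn1, both textbook smooth muscle markers, thus differed in opposite directions in the same libraries.

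Tpm1 and Tpm2 encode tropomyosins, coiled-coil proteins that run along the actin filament and set which myosins and binding proteins can reach it. Tpm1 (ENSMUSG00000032366.15, chr9:67022590-67049406, minus strand, 6485 nt of exon) stood at 60.8, 61.0 and 63.3 FPKM in the libraries labelled WT and at 101, 104 and 100.5 FPKM in those labelled KO. Tpm2 (ENSMUSG00000028464.16, chr4:43514711-43523765, minus strand, 2909 nt of exon) stood at 49.3, 47.9 and 49.7 FPKM against 80.9, 87.5 and 79.3 FPKM. Neither gene overlapped between the groups. Tpm1 rose 1.65-fold (log2 fold change 0.72, SE 0.0507, edgeR adjusted p = 9.55e-08). Tpm2 rose 1.69-fold (log2 fold change 0.75, SE 0.0580, edgeR adjusted p = 2.30e-07). The genes were counted as wholes, so isoforms from alternative exons, by which muscle and non-muscle tropomyosins differ, were not separated here.

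Cald1 encodes caldesmon, which binds actin, tropomyosin and myosin and holds contraction back until it is phosphorylated. The gene (ENSMUSG00000029761.16) lies at chr6:34598500-34775473 on the plus strand, with 12041 nt of exon. Its level was 57.5, 58.0 and 55.8 FPKM in the libraries labelled WT and 60.0, 52.0 and 61.7 FPKM in those labelled KO. The groups overlapped, with KO replicate 2 the lowest of all 6. The log2 fold change was 0.02 (SE 0.0620, edgeR adjusted p = 0.835), and the interval of 2 SE ran from 0.929-fold to 1.10-fold. Cald1 is among the genes of at least 6370 nt of exon, which lay low in KO replicate 2. The part of this in the result was not tested.

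Tagln encodes transgelin (SM22), an actin-bundling protein that is among the most abundant transcripts of smooth muscle. Here the gene (ENSMUSG00000032085.5, chr9:45929619-45936058, minus strand, 1988 nt of exon) held 14, 19 and 12 reads in the libraries labelled WT and 18, 15 and 13 reads in those labelled KO. The levels were 0.354, 0.489 and 0.274 FPKM against 0.508, 0.421 and 0.385 FPKM, and the groups overlapped. The log2 fold change was 0.24 (SE 0.354, edgeR adjusted p = 0.595), with an interval of 2 SE from 0.724-fold to 1.93-fold. A difference within that interval was not detectable at this depth.

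The count of Tagln rests on a small part of the gene. Of its annotated exon length, 67.9% (1349 of 1988 nt) is shared with exons of genes on the opposite strand, namely 1241 nt with the RNA gene Gm48529 and 108 nt with Pcsk7, which encodes a proprotein convertase. Only 639 nt belong to Tagln alone. The command recorded in the count tables set no strand and no counting of reads that overlap several genes, so a read in shared exons could not be told apart between the strands. Gm48529 itself held 13, 11 and 7 reads in the libraries labelled WT and 11, 15 and 20 in those labelled KO. None of the other 8 genes shared exon bases with another gene. How much of the low count of Tagln this overlap accounts for was not tested, and its level is not comparable with those of the other 8.

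**Figure D2:**
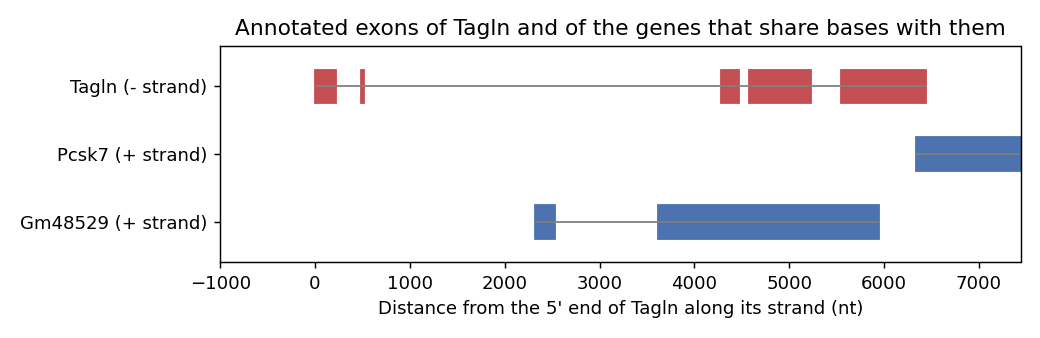
Annotated exons of Tagln and of the genes that share bases with them, by distance from the 5′ end of Tagln in nt along its strand. Boxes are exons, in red for Tagln and in blue for Pcsk7 and Gm48529, and lines are introns. The long exon of Gm48529 covers 1241 nt of Tagln exon, and an exon of Pcsk7 meets the last 108 nt.

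Tgfbi and Postn encode secreted matrix proteins, TGF-beta-induced protein and periostin, which bind integrins and collagen and are both classical responses to TGF-beta. Tgfbi (ENSMUSG00000035493.10, chr13:56609523-56639562, plus strand, 3771 nt of exon) stood at 26.7, 26.5 and 28.0 FPKM in the libraries labelled WT and at 26.0, 25.4 and 23.6 FPKM in those labelled KO. All libraries labelled KO were lower by a small margin. Scaled to library totals with TMM factors, the groups did not overlap for 7 of these 9 genes, 5 with KO higher and 2 with KO lower. That was so for 57.8% of all genes tested (29.1% with KO higher and 28.7% with KO lower). The log2 fold change was -0.12 (SE 0.0588, edgeR adjusted p = 0.113), with an interval of 2 SE from 0.849-fold to 0.999-fold. Postn (ENSMUSG00000027750.16, chr3:54361109-54391037, plus strand, 8702 nt of exon) stood at 9.85, 9.78 and 9.84 FPKM against 10.4, 10.7 and 11.4 FPKM. The groups did not overlap, and the difference was 1.10-fold (log2 fold change 0.14, SE 0.0561, edgeR adjusted p = 0.04997, just under the threshold). In 8 of 11 alternatives Postn no longer passed, among them leaving out any library labelled WT or KO replicate 3, with edgeR and DESeq2 adjusted p from 0.0255 to 0.132 over all 11. Both matrix genes thus differed by far less than Acta2, Myl9 or Cnn1.

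**Figure D3:**
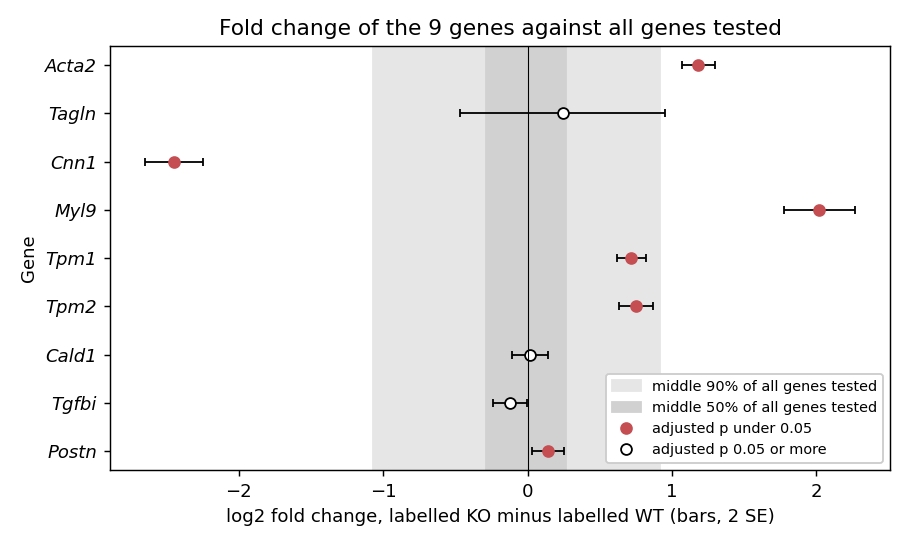
Log2 fold change of the 9 genes, libraries labelled KO minus those labelled WT, with bars of 2 SE. Filled points have an adjusted p under 0.05 and open points do not, and the grey bands hold the middle 50% and middle 90% of the 14688 genes tested. Acta2, Myl9 and Cnn1 lie outside the wider band, and Cald1, Tgfbi and Postn lie within the narrower one.

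By level, the order in the libraries labelled WT was Acta2, Tpm1, Cald1, Tpm2, Tgfbi, Cnn1, Postn and Myl9. In those labelled KO it was Acta2, Tpm1, Tpm2, Cald1, Tgfbi, Myl9, Postn and Cnn1. Tagln is left out of the order because of its shared exons. No pair of neighbours in either order overlapped between its 3 libraries in FPKM. The changes in order are those of Tpm2, which stood below Cald1 in the libraries labelled WT and above it in those labelled KO, and of Myl9 and Cnn1, which traded places around Postn.

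For 6 of the 7 contractile genes, all but Cald1, the share of the gene in the summed FPKM of its gene family was compared between genotypes. Acta2 made up 5.76 ± 0.194% of the actins in the libraries labelled WT and 8.54 ± 0.444% in those labelled KO. The cytoplasmic actins also rose, Actg1 from 426 to 647 FPKM (log2 fold change 0.60, edgeR adjusted p = 2.67e-06), as did Actb, chosen after its values were seen (log2 fold change 0.56, edgeR adjusted p = 4.01e-06). Of 4 actin genes tested, 3 rose and Actg2, the other smooth muscle actin, did not pass, where 25.1% of all genes tested were called higher.

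The calponins moved apart. Cnn2, a calponin found in many cell types, rose from 56.3 ± 1.71 to 190.4 ± 7.60 FPKM (3.38-fold, log2 fold change 1.76, edgeR adjusted p = 6.21e-11), and Cnn3, the acidic calponin, rose from 90.8 to 128 FPKM (log2 fold change 0.49, edgeR adjusted p = 1.32e-05). Cnn1 made up 6.83 ± 0.397% of calponin FPKM in the libraries labelled WT and 0.616 ± 0.0268% in those labelled KO. Among the transgelins, Tagln2, the form found outside muscle, fell from 203 to 99.1 FPKM (2.05-fold lower, log2 fold change -1.03, edgeR adjusted p = 2.82e-08). Tagln made up 0.185 ± 0.0601% of transgelin FPKM against 0.443 ± 0.0889%, a share that inherits the limits of the Tagln count.

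Myl9 made up 10.3 ± 1.22% of the regulatory light chains in the libraries labelled WT and 21.1 ± 1.17% in those labelled KO, a difference of 10.9 percentage points that was 4.87 as a share of counts. Myl12a, a non-muscle regulatory light chain, rose from 32.7 to 59.2 FPKM (log2 fold change 0.85, edgeR adjusted p = 9.48e-08), while its near-identical neighbour Myl12b is annotated under 2 overlapping identifiers and its counts are uncertain. Of exon length, 19.9% is shared with other genes for Myl12a, and 26.7% and 100% for the Myl12b identifiers. Reads that overlapped several genes were not counted, so the share of Myl9 may be overstated in every library. All 4 tropomyosin genes were called higher, as were 25.1% of all genes tested, and their median log2 fold change was 0.54. The shares of Tpm1 (22.6 ± 0.445% against 26.6 ± 0.456%) and Tpm2 (17.9 ± 0.482% against 21.6 ± 0.426%) were both larger in the libraries labelled KO. The difference for Tpm2 was 3.63 percentage points, and 2.14 as a share of counts. For each of the 6 shares the groups did not overlap. By scaled counts, a different measure, the groups did not overlap for 57.8% of all genes tested. The shares are built from the levels of the same genes, so they are no separate evidence. The two-sided exact permutation test gave p = 0.1 for each, the smallest that 3 against 3 libraries allow, and 0.1 after Benjamini-Hochberg adjustment over the 6 shares.

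**Figure D4:**
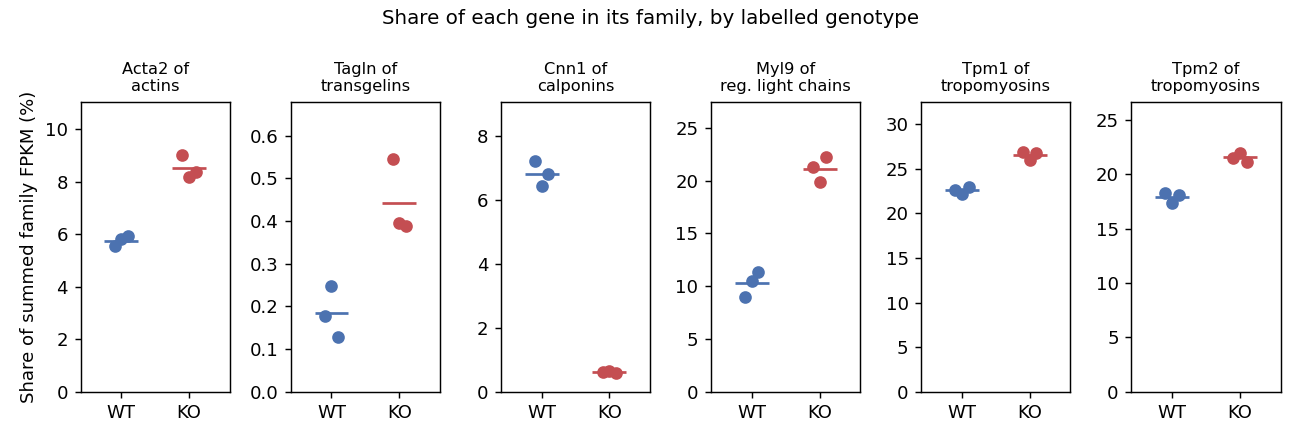
Share of Acta2, Tagln, Cnn1, Myl9, Tpm1 and Tpm2 in the summed FPKM of their families, in percent, for the libraries labelled WT (blue) and KO (red). Points are libraries and lines are means of 3, and each panel has its own axis from 0. Myl9 goes from 10.3% to 21.1%, and Cnn1 from 6.83% to 0.616%. The share of Myl9 may be overstated, because reads in exons that Myl12a and Myl12b share were not counted. Tagln did not pass the test for its own level, at 12 to 19 reads a library. Of its exon length 67.9% is shared with other genes, and Tagln2 in its family fell from 203 to 99.1 FPKM.

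The partners of these proteins were read from a list of 30 genes for myosin heavy and light chains, the kinases and phosphatase subunits that act on them, and stress fibre and focal adhesion proteins. Of 28 tested, 19 were higher in the libraries labelled KO, 2 were lower and 7 did not pass, with a median log2 fold change of 0.28. Over all genes tested, 25.1% were called higher and 23.6% lower. Mylk, the kinase that phosphorylates the regulatory light chain, rose from 0.613 to 1.71 FPKM (2.78-fold, log2 fold change 1.48, edgeR adjusted p = 1.93e-07). Myl6, the essential light chain of the same myosins, rose from 67.5 to 171 FPKM (2.53-fold, log2 fold change 1.34, edgeR adjusted p = 2.37e-09). Lpp, a focal adhesion protein of the zyxin family, fell from 12.8 to 10.8 FPKM (log2 fold change -0.25, edgeR adjusted p = 0.0297), a call lost on leaving out WT replicate 1, WT replicate 2 or KO replicate 1 (edgeR adjusted p from 0.0531 to 0.113). The other gene called lower was Myh14, a non-muscle myosin heavy chain with at most 35 reads in a library.

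Of the SRF, MRTF, YAP and TEAD regulators, 9 of 10 were tested. Srf rose from 19.9 to 28.1 FPKM (log2 fold change 0.49, edgeR adjusted p = 2.25e-05), and Wwtr1, which encodes TAZ, rose from 19.7 to 29.0 FPKM (log2 fold change 0.55, edgeR adjusted p = 2.50e-06). Mrtfb, an SRF cofactor, fell from 8.56 to 6.04 FPKM (log2 fold change -0.51, edgeR adjusted p = 0.000245), and Tead2 fell from 37.5 to 25.6 FPKM (log2 fold change -0.55, edgeR adjusted p = 2.05e-06). In all, 2 rose, 4 fell and 3 did not pass, and the median was near 0. Beside this, 25.1% of all genes tested were called higher and 23.6% lower. These are RNA levels, and the activity of MRTF and YAP depends on where the proteins are in the cell, which was not measured here.

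Of 11 further targets of SRF and YAP, 9 rose, none was called lower and 2 did not pass, with a median log2 fold change of 0.94. Over all genes tested, 25.1% were called higher and 23.6% lower. This list, as the others, was chosen with earlier results of these data known. Ccn2, which encodes connective tissue growth factor, rose from 9.57 ± 0.342 to 65.9 ± 4.17 FPKM (6.88-fold, log2 fold change 2.78, edgeR adjusted p = 4.18e-12). Ccn1, a related matricellular protein, rose from 49.2 to 146 FPKM (2.97-fold, log2 fold change 1.57, edgeR adjusted p = 5.13e-10). Fhl1 had 0 reads in every library labelled WT and 17, 16 and 12 in those labelled KO, so its fitted fold change depends on the prior count and is not given.

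Calls among genes of the TGF-beta pathway went both ways. The lists mix activators and inhibitors, so counts of rises and falls do not give a direction of the pathway. Among the pathway's ligands and the proteins that store or neutralise them, 9 of 10 were tested, of which 5 were higher, 2 lower and 2 not called. For this and the next list, the shares over all genes tested were 25.1% called higher and 23.6% lower. Ltbp4, a latent TGF-beta binding protein, rose from 2.53 to 10.8 FPKM (4.27-fold, edgeR adjusted p = 2.68e-09), and Inhba, the activin A subunit, rose from 1.34 to 2.93 FPKM (log2 fold change 1.12, edgeR adjusted p = 4.06e-06). Fst, the activin antagonist follistatin, fell from 4.45 to 1.33 FPKM (3.36-fold lower, edgeR adjusted p = 3.28e-08), and Ltbp2 fell from 62.4 to 31.3 FPKM (log2 fold change -0.997, edgeR adjusted p = 3.45e-08). Of 12 receptors, Smads and Smad co-repressors, 2 were higher, 5 lower and 5 not called. Tgfbr1, the type I receptor, rose from 9.03 to 11.6 FPKM (log2 fold change 0.36, edgeR adjusted p = 0.00135), and Smad6, an inhibitory Smad, fell from 17.0 to 13.7 FPKM (log2 fold change -0.31, edgeR adjusted p = 0.00229). The co-repressor gene Skil, itself a TGF-beta target, rose from 1.08 to 2.30 FPKM (log2 fold change 1.09, edgeR adjusted p = 6.76e-06), and the common mediator Smad4 fell from 28.1 to 23.9 FPKM (log2 fold change -0.23, edgeR adjusted p = 0.00344). Leaving out WT replicate 1 brought the calls in this list from 7 to 4.

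Beyond Tgfbi and Postn, 23 of 24 further TGF-beta targets were tested, and 11 were higher, 7 lower and 5 not called, with a median log2 fold change of -0.0086. Over all genes tested, 25.1% were called higher and 23.6% lower. Whether TGF-beta raises or lowers each target was not taken into account. Pmepa1, a feedback inhibitor of TGF-beta signalling, rose from 1.58 to 8.93 FPKM (5.62-fold, log2 fold change 2.49, edgeR adjusted p = 5.12e-10). Ccn2, given above, is also in this list. Dcn, which encodes the TGF-beta-binding proteoglycan decorin, fell from 89.7 to 26.2 FPKM (3.42-fold lower, log2 fold change -1.78, edgeR adjusted p = 6.84e-11), and Fbn1, which encodes fibrillin 1, fell from 11.1 to 6.55 FPKM (log2 fold change -0.77, edgeR adjusted p = 4.03e-06). Tgfbi and Postn, at -0.12 and 0.14, lay near the median of this list.

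**Figure D5:**
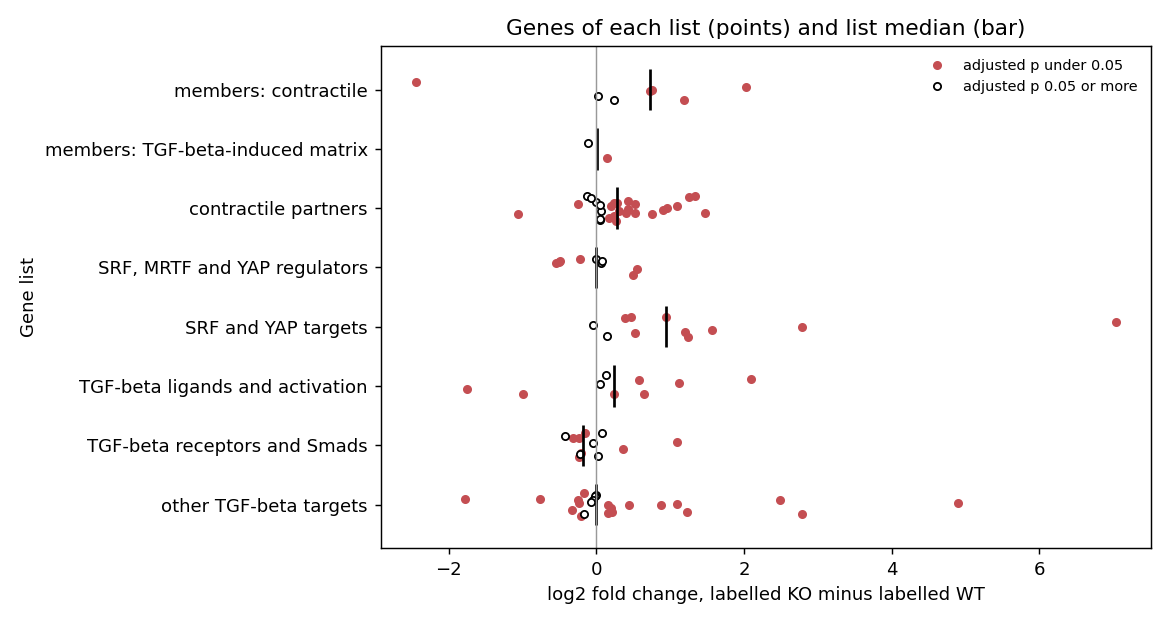
Log2 fold change, libraries labelled KO minus those labelled WT, of every tested gene in the 9 genes and in 6 lists around them. Filled points have an adjusted p under 0.05, and the bar is the median of a list. The SRF and YAP targets have the highest median of the lists (0.94), and the TGF-beta receptors and Smads the lowest (-0.19). The lists were chosen with earlier results of these data known, and some share genes. The point furthest to the right is Fhl1, whose position depends on the prior count because it had 0 reads in the libraries labelled WT.

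The markers of other cell types were read beside these results. The summed level of 6 mature smooth muscle markers ran from 14.9 to 15.8 FPKM in the libraries labelled WT and from 21.6 to 23.3 FPKM in those labelled KO, and all 4 that were tested were higher, of which DESeq2 called 2. Most of the sum was Smtn (14.1 against 20.3 FPKM), and Des and Synpo2 had between 8 and 23 reads in a library. The defining members of the list stayed near 0 and were too low to be tested. They were Myh11, the smooth muscle myosin heavy chain, and Myocd, the smooth muscle co-activator of SRF. Myh11 had 17, 7 and 16 reads in the libraries labelled WT and 8, 3 and 6 in those labelled KO. Myocd had 2 reads in all 6 libraries together. Lmod1 (log2 fold change 0.75, edgeR adjusted p = 0.00297) and Smtn (log2 fold change 0.52, edgeR adjusted p = 7.78e-06), which encode leiomodin 1 and smoothelin, were among the 4 that were higher. Of 10 fibroblast markers, 5 were higher (Thy1 from 63.2 to 115 FPKM and S100a4 from 134 to 232 FPKM), 4 were lower (Lum from 15.5 to 5.17 FPKM and Dcn as above) and 1 was not called. Over all genes tested, 25.1% were called higher and 23.6% lower. S100a4 has 584 nt of exon, 51.7% of it shared with Gm42674. It held 1998, 3248 and 1929 reads in KO replicates 1, 2 and 3, and short genes lay high in KO replicate 2. The part of these markers in the results was not tested.

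Markers of more distant cell types were low. Their calls stand beside 25.1% of all genes tested called higher and 23.6% called lower. Of 6 skeletal muscle markers, 1 was tested and not called, with Myod1 and Myf5 at 0 in every library. The skeletal muscle sum ran from 0.0654 to 0.161 FPKM in the libraries labelled WT and from 0.00571 to 0.0168 FPKM in those labelled KO. Most of the sum in the libraries labelled WT was Myh3, which was too low to be tested. Myh3 had 7, 14 and 16 reads in those libraries and 0, 0 and 1 in the libraries labelled KO. The epithelial sum ran from 2.67 to 2.96 FPKM against 0.298 to 0.648 FPKM, with Epcam and Krt18 at 0 and Krt14, a basal keratin, lower (2.69 against 0.376 FPKM, edgeR adjusted p = 2.26e-06). The 4 endothelial markers summed to between 0.203 and 0.219 FPKM against 0.136 to 0.244 FPKM, with 1 tested and not called. The labels' extraction text speaks of blood although the samples are a cell line. The 8 blood and immune markers summed to 4.07 to 6.01 FPKM against 3.45 to 4.31 FPKM, with Cd3e and the haemoglobin gene Hbb-bs at 0. The other haemoglobin gene of the list, Hba-a1, had 0 reads in every library labelled WT and 8, 7 and 6 reads in those labelled KO, too few to be tested. Of 3 tested, Lyz2, which encodes lysozyme, was higher (3, 1 and 2 reads against 11, 10 and 13, edgeR adjusted p = 0.00127). Cd68 (4.75 against 2.90 FPKM) and Ptprc (0.281 against 0.0816 FPKM) were lower. The part of these markers in the results was not tested. The adipocyte sum ran from 0.221 to 0.290 FPKM against 1.01 to 1.09 FPKM, of which Fabp4, a fatty acid carrier, was 0.146 against 0.984 FPKM.

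For the called genes other than Tpm1, the gene with the most similar profile was sought among 4710 genes of at least 1000 reads on average. Likeness was the root mean square difference over the 6 libraries of log2 counts, scaled to library totals with TMM factors and centred on each gene's mean. Genes with a like difference between genotypes thus come first. The closest was Fbln5 (fibulin 5, an elastic fibre protein) to Acta2, at 0.0490 log2 units, Gas2 to Myl9 at 0.138 and Ccl2 (a monocyte chemokine) to Cnn1 at 0.121. To Tpm2 it was Gsn (gelsolin, which severs actin filaments) at 0.0228, and to Postn Fam120b at 0.0234. With 6 libraries in 2 groups many genes share such a profile.

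The 12 circRNA libraries gave a separate readout, the number of reads across a backsplice junction, where the end of an exon is joined to the start of the same or an earlier exon. Circles inside 2 of the 9 genes were listed, and none inside the other 7. Tpm1 had 2 circles, which end at the same exon and differ in the exon they start from. The 30 bases across each junction, read from the genome, are shown because they tell the circles apart, with the last 15 bases before the junction in lower case and the first 15 after it in capitals.
Tpm1 circle over 2965 nt: ttgatgacttagaagAGGCATGAAAGTCAT
Tpm1 circle over 5100 nt: ttgatgacttagaagGCTGAAGCTGACGTA

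The shorter one (chr9:67031029-67033993) had 11 and 10 reads in the cytoplasmic libraries labelled WT and 2 and 1 reads in those labelled KO, with 0 reads in every nuclear and whole-cell library. The longer one (chr9:67031029-67036128) had 1 and 2 reads in the cytoplasm of WT cells against 5 and 3 in KO, and 4 and 2 reads in whole WT cells against 0 and 2 in KO. Both have annotated exon edges at their ends. The cytoplasmic libraries labelled WT held 77818 and 81941 junction reads in all, and those labelled KO 50629 and 63335. The whole-cell ones held between 50341 and 58165. The nuclear libraries labelled WT held 2189 and 2635 junction reads, and those labelled KO 3743 and 4383. Cald1 had 1 circle (chr6:34603737-34603915), with no exon edges at its ends. It had 1 and 1 reads in WT nuclei and 1 and 3 in KO nuclei. With so few reads and 2 libraries a group these are counts without a test. A listed 0 allows up to 3 reads, counting error only.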

How the data were processed

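RNA from NIH/3T3 cells labelled WT or XPO4 KO was compared in 3 mRNA-seq libraries of each genotype. Per the labels and file headers, the authors aligned reads with HISAT2 to mm10 and deposited whole-number counts per gene from featureCounts (version 2.0.0), made without a strand setting and without reads that aligned to several places or overlapped several genes. The deposited circRNA counts are junction reads in 12 libraries and were described without a test. Groups followed the sample titles. Gene identifiers were given symbols through GENCODE vM21 (55141 of 55401 matched, 54349 of them with the version). FPKM was computed from the counts, the exon length in the tables and the total of counted reads (16974062 to 22057323 per library), and limits from counts cover counting error only.

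For 14688 genes the quasi-likelihood test of edgeR (version 4.0.16, in R 4.3.3, after TMM scaling and filterByExpr) was used, and p-values adjusted by Benjamini-Hochberg were called under 0.05. The test was run first on simulated counts. Shares of gene families were compared with a two-sided exact permutation test. DESeq2 (version 1.42.0), other scalings, no filter, the replicate number as a block and leaving out each library were alternatives. The 9 genes and the gene lists were chosen with earlier results of these data known. Named from each list were up to 2 genes with the largest rise and 2 with the largest fall among those called, with a mean of at least 50 reads in the higher genotype. Actb, Actg2, Des, Hba-a1, Lyz2, Myh3, Myh11, Synpo2, Myh14, Myocd, Fhl1 and Myl12b were named outside this rule after their values were seen. The gene most like Tpm1 is not reported here. Tables and figures used Python 3.11.15, numpy 2.4.6, pandas 2.3.3 and matplotlib 3.10.9.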

Additional observations from a re-analysis of the deposited data

Results flagged for a closer look

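Reads of circRNAs from Tpm1 were found outside the mRNA comparison. The circle over 2965 nt reached 11 reads in a cytoplasmic WT library and 2 at most in a cytoplasmic KO library. The circle over 5100 nt reached 5 reads in a cytoplasmic KO library and 2 at most in a cytoplasmic WT library. Every cytoplasmic library held reads of both circles, so the 3 reads that a count of 0 allows are no measure of these differences. For the longer circle the counts were 5 and 3 in KO cytoplasm against 1 and 2 in WT. The cytoplasmic libraries labelled WT held 77818 and 81941 junction reads in all, against 50629 and 63335 in those labelled KO. The difference between genotypes was not tested.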

How the results depend on the processing

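Over 11 alternatives, 7151 calls among all genes became 6400 (DESeq2) to 7696 (no filter), and 6143 to 7397 on leaving out 1 library. Among the 9 genes, 5 or 6 were called each time, the difference being Postn. Cald1, never called, had a log2 fold change of 0.0173 that ranged from -0.0214 (without KO replicate 3) to 0.0902 (without KO replicate 2), and the cause was not tested. With DESeq2, mature smooth muscle calls went from 4 to 2 and skeletal muscle calls from 0 to 1, the latter also without the filter. On leaving out 1 library, skeletal muscle calls ranged from 0 to 1 and calls among TGF-beta receptors and Smads from 4 to 7. As a share of counts, which does not allow for exon length, the difference for Myl9 was 4.87 percentage points in place of 10.9 and that for Tpm2 2.14 in place of 3.63.

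Same-numbered libraries did not deviate together (correlations of 0.0615, 0.0359 and -0.0889), nor did every library correlate best with its own number, so the numbers were not taken as pairs. With the replicate number as a block, 7124 genes and 5 of the 9 were called, and Postn was not (edgeR adjusted p = 0.0659). The family shares kept their directions, with a sign-flip p of 0.25 each, the smallest for 3 pairs.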
